A study of Mus musculus with 7 samples.

Results

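The C1q-like and cerebellin synapse organizers examined here are 7 genes of 22248 in the deposited gene table. C1qtnf4 was chosen by its normalised counts, which were low in every AM6545 library of the comparison described here. C1ql3, Cbln1, Cbln2 and Cbln4 were listed as secreted proteins with a C1q domain, and Grid1 and Adgrb3 as their receptors. Messenger RNA was sequenced from hippocampal synaptoneurosomes, a fraction of resealed presynaptic terminals that keep their postsynaptic partners, of wild-type C57Bl/6J female mice. Sub-chronic AM6545 was represented by 4 libraries, lettered B, D, E and F, and vehicle by 3, lettered B, D and E. AM6545 blocks the CB1 cannabinoid receptor and was designed to stay mostly outside the brain. Age, dose, length of treatment and how many mice went into a library are not given in the sources used here, so the p-values measure the spread between these libraries, which may be technical.

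Proteins of this family carry a globular C1q domain, the fold first known from complement C1q, and assemble into multimers outside the cell. Cerebellins released by the axon bind neurexins on the presynaptic side and delta-type glutamate receptors on the postsynaptic side, and so bridge the cleft. C1ql proteins bind the adhesion receptor encoded by Adgrb3, and C1ql2 and C1ql3 are made by hippocampal granule cells, where they act at mossy fibre synapses. C1qtnf4 belongs to the related C1q/TNF-related proteins and is itself secreted in the brain.

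Coding sequence is shown for 4 of the 5 ligands (Cbln2 and the receptor Grid1 are not shown) and for Adgrb3, because C1qtnf4 has the highest GC content of the 7 members. Each line gives the last 120 coding bases, 5′ to 3′ on the coding strand and ending in the stop codon, with every G and C in capitals. In the ligands this stretch encodes the C-terminal end of the protein, and the borders of the C1q domain were not mapped here. The sequences are from GENCODE release M21 on GRCm38, for the coding transcript with the most counts.
C1qtnf4: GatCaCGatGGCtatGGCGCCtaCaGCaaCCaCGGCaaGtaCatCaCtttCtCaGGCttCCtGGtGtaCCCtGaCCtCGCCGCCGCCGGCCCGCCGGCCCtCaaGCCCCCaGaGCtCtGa
Cbln1: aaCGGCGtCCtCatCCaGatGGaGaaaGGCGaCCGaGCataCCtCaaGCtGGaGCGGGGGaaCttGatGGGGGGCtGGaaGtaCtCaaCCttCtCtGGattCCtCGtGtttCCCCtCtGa
Cbln4: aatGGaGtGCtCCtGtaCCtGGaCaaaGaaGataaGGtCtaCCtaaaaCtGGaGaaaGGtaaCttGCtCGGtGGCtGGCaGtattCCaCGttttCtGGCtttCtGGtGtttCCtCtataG
C1ql3: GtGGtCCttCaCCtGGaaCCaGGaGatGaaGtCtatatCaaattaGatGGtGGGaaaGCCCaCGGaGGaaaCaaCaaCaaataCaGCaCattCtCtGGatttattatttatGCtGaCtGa
Adgrb3: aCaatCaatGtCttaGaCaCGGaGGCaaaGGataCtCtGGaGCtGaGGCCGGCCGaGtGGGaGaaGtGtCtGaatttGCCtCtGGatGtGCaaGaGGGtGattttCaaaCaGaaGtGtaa

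Of these 120 bases, 77 are G or C in C1qtnf4, 68 in Cbln1, 58 in Adgrb3, 55 in Cbln4 and 50 in C1ql3. The stretches lie within single coding exons at chr2:90890246-90890365 on the plus strand for C1qtnf4, and on the minus strand at chr8:87470254-87470373 for Cbln1, chr2:172037370-172037489 for Cbln4, chr2:13004265-13004384 for C1ql3 and chr1:25068168-25068287 for Adgrb3. Over the annotated coding sequence the GC content was 70.5% for C1qtnf4, 60.8% for C1ql3, 58.4% for Cbln1 and 57.2% for Cbln2. It was 54.9% for Grid1, 49.9% for Cbln4 and 46.4% for Adgrb3. For Adgrb3 this is the 1959-base coding sequence of Adgrb3-203, a transcript of 2953 bases. Longer transcripts such as Adgrb3-201 (5059 bases) exist, and whether Adgrb3-203 encodes the full receptor was not examined. Aligned coding bases of the 5 ligands were identical for 63.2% of positions between C1ql3 and Cbln2 and for up to 74.9% between Cbln1 and Cbln2. The longest exact match between transcripts of any 2 ligands was 21 bases, between Cbln2 and Cbln4, so none is a near-identical copy of another. Exons of annotated genes on the opposite strand overlap C1ql3 over 1547 and 80 bases, and use of strand in counting is not given in the sources used here, so its level is uncertain to that extent.

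Library totals ran from 19174529 counts in vehicle replicate E to 25894586 in vehicle replicate B. The first principal component of the genes tested held 39.9% of the variance. Vehicle replicate B scored 36.1 on it, far from all others, which scored -19.1 to 10. The slope of log2 level on GC content, per 10 percentage points, ran from -0.12 to -0.03 in AM6545 libraries and from 0.05 to 0.13 in vehicle libraries (exact permutation p 0.0286, two-sided, the smallest that 35 splits allow). The tissue label was checked against marker lists. The 5 markers of pyramidal and granule neurons summed to 3764 to 4083 CPM (counts scaled to a common library size by TMM) in AM6545 and 4114 to 4834 CPM in vehicle, without overlap. Each of the 5 overlapped on its own: Nrgn (-0.37) and Neurod2 (-0.27) had an unadjusted p under 0.05, while Slc17a7, Camk2a and Neurod6 were at -0.05, -0.09 and 0.15. The 5 CA1 markers summed to 622 to 681 CPM and 736 to 777 CPM, also without overlap, with all 5 below 0 and Pou3f1 alone not overlapping (-0.55). The sums overlapped for the dentate gyrus, CA3 and CA2, subiculum and cortex, thalamus and habenula, cerebellum, interneuron, astrocyte, microglia, oligodendrocyte, endothelial and mural, and choroid plexus lists. Within the microglia list, 4 of 7 had an unadjusted p under 0.05 and did not overlap, all lower in AM6545: the complement genes C1qa, C1qb and C1qc, at -0.47, -0.45 and -0.46, and Tmem119 at -0.22 (edgeR, adjusted p 0.199 to 0.316). Cx3cr1, P2ry12 and Csf1r were at 0.04, 0.07 and -0.04. Among all genes tested, 8.7% were lower with an unadjusted edgeR p under 0.05, and 7.19% were lower without overlap. The 4 had a GC content of 57.4% to 59.5%, and Cx3cr1, P2ry12 and Csf1r one of 38.7% to 53.9%. Transcript lengths were 1040 to 1203 bases for C1qa, C1qb and C1qc and 2241 for Tmem119, beside 2096 to 3988 for Cx3cr1, P2ry12 and Csf1r. The part of GC content and of length in these values was not tested. Of the lists with overlapping sums, choroid plexus markers varied most, from 403 to 1940 CPM and from 1554 to 2774 CPM. The cerebellar genes Pcp2 and Gabra6 were at 0 to 0.12 CPM in all libraries. In bulk samples of a fraction, fewer cells of a type, less RNA per cell and less RNA recovered into the fraction cannot be told apart. The part of the neuronal, CA1 and microglial markers in the results below was not tested.

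Per unit of transcript length, the members differed widely in level. Levels are in TPM (counts divided by transcript length and scaled to a common total), computed from the transcript counts and the lengths in GENCODE M21. C1qtnf4 was the most abundant member, at 317 ± 11.99 TPM in vehicle (SD, n = 3) and 221 ± 18.9 TPM in AM6545 (SD, n = 4). Adgrb3 followed at 50.2 ± 4.603 TPM (SD, n = 3) and 56.1 ± 4.07 TPM (SD, n = 4). C1ql3 came next at 18.7 ± 1.06 TPM (SD, n = 3) and 16.4 ± 0.790 TPM (SD, n = 4). These 3 genes did not overlap with each other in any library. Cbln4 and Cbln2 were at 7.34 to 13.97 TPM and 6.57 to 12.75 TPM over the 7 libraries, ranges that largely coincide. The lowest pair, Grid1 at 1.77 to 3.28 TPM and Cbln1 at 0.537 to 3.82 TPM, also overlapped. For comparison, C1ql2, the granule cell relative of C1ql3 that is not a member, was at 169 to 211 TPM.

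**Figure D1:**
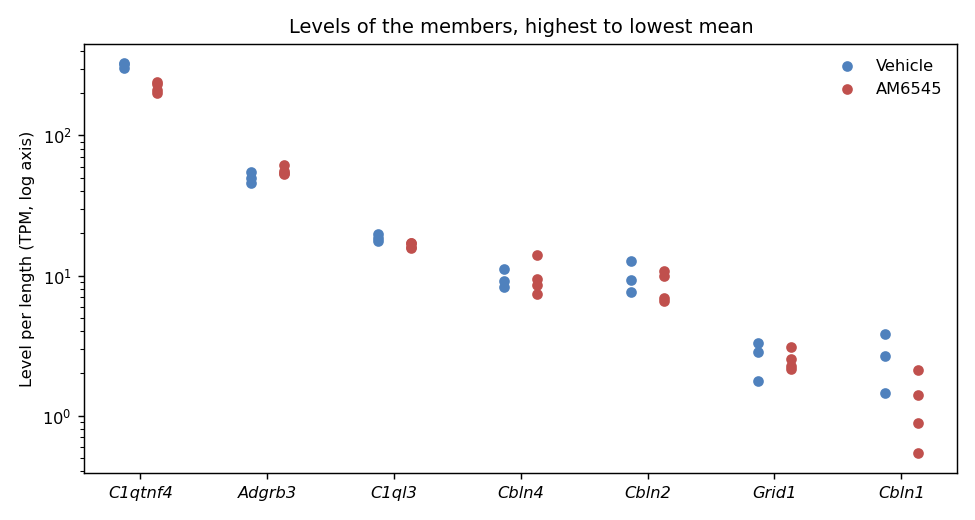
Level per length (TPM, log axis) of each of the 7 members, 1 dot per library, blue for vehicle and red for AM6545, ordered by mean. C1qtnf4, Adgrb3 and C1ql3 lie in separate bands, while Cbln4 and Cbln2, and Grid1 and Cbln1, share theirs.

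All 7 members passed the low-count filter, and AM6545 was compared with vehicle for each by edgeR's quasi-likelihood test across 14654 genes. C1qtnf4 enters as a description only, since its level in this contrast chose it. Of the other 6 members, 0 had a Benjamini-Hochberg adjusted p under 0.05, as did 0.00682% of all genes tested (1 gene). DESeq2 and limma-voom also called 0 of the 6. At an unadjusted edgeR p under 0.05 there were 2 of 6, C1ql3 and Cbln1, both lower in AM6545. Among all genes 14.6% passed that limit, 8.7% lower (1275 genes) and 5.86% higher (859 genes). With scaling by total counts the split over all genes was 943 lower and 1104 higher, and the same 2 members passed. The median log2 fold change of the 6 was -0.26, beside 0.01 over all genes tested, and 5 of 6 were below 0, as were 48.6% of all genes. The groups did not overlap for 1 of the 6, C1ql3, and for 7.19% of all genes in that direction and 6.63% in the other.

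**Figure D2:**
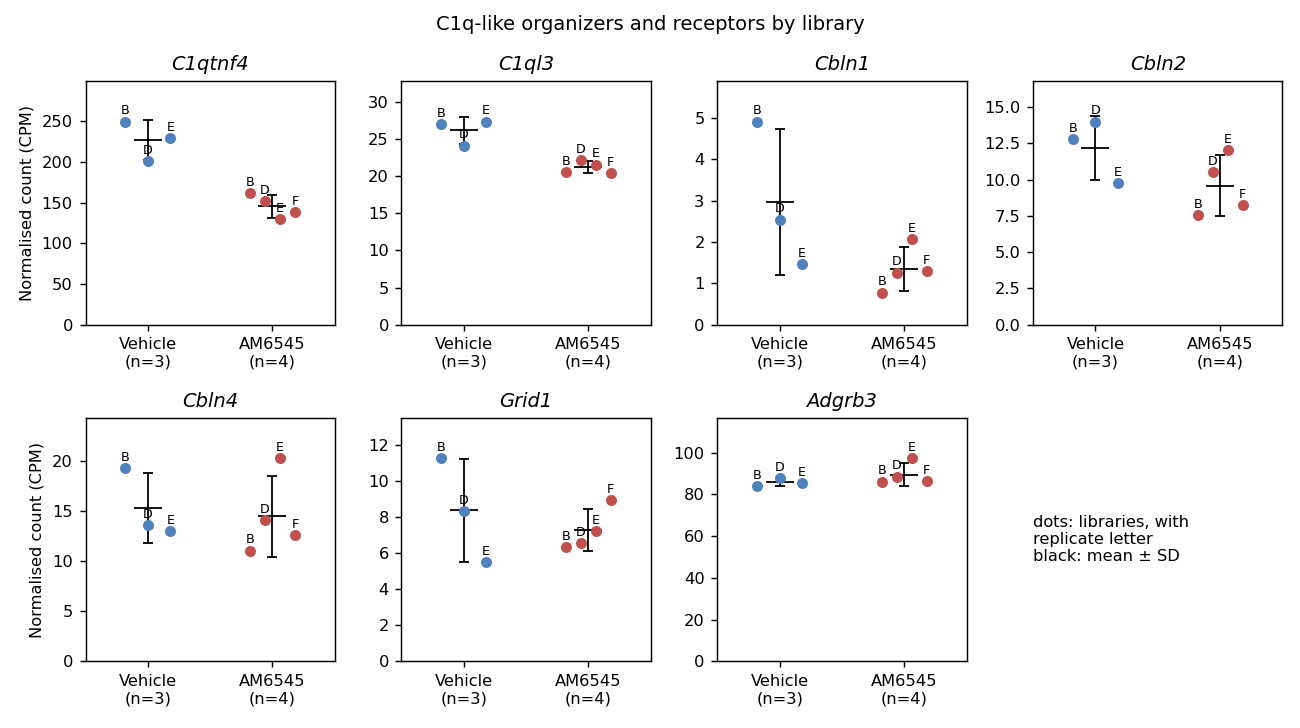
Normalised counts (CPM) of the 7 members, 1 panel per gene with an axis from 0. Dots are libraries marked with their replicate letter and black bars are mean ± SD. Only for C1qtnf4 and C1ql3 do all 4 AM6545 libraries lie below all 3 vehicle libraries, and vehicle replicate B is the highest vehicle library for C1qtnf4, Cbln1, Cbln4 and Grid1.

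Among the secreted ligands, C1qtnf4 (ENSMUSG00000040794.6, chr2:90885860-90890525, plus strand, GRCm38) was at 162, 152, 129.5 and 138 CPM in AM6545 replicates B, D, E and F. In vehicle replicates B, D and E it was at 249, 201 and 229 CPM. The groups did not overlap, with AM6545 replicate E lowest and vehicle replicate B highest. These values, 145 ± 14.4 CPM (SD, n = 4) and 226 ± 24.4 CPM (SD, n = 3), are the ones that chose the gene. They correspond to a log2 fold change of -0.64 (SE 0.11), or 35.8% lower. The gene has a single transcript in the deposited table, with 2754 to 6192 counts per library, so counting error was small.

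At 70.7% GC over its 1290-base transcript, C1qtnf4 stood near the end of the range, with 3 of 14633 genes above it. Over all genes tested the median log2 fold change ran from 0.16 in the decile of lowest GC content to -0.17 in the highest. Beyond the deciles, the 62 genes with at least 65% GC had a median of -0.33, 95.2% of them were lower in AM6545, and 8 of them, C1qtnf4 included, were at or below its fold change. When a lowess trend on GC content and on length was removed from every library, C1qtnf4 had a log2 fold change of -0.11, and -0.04 with the replicate letter as a block as well. Under the other 17 alternatives it lay between -0.72 and -0.51. The correction took GC content and length together, so their separate parts in the C1qtnf4 values cannot be told apart. Neither was tested beyond this correction.

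**Figure D3:**
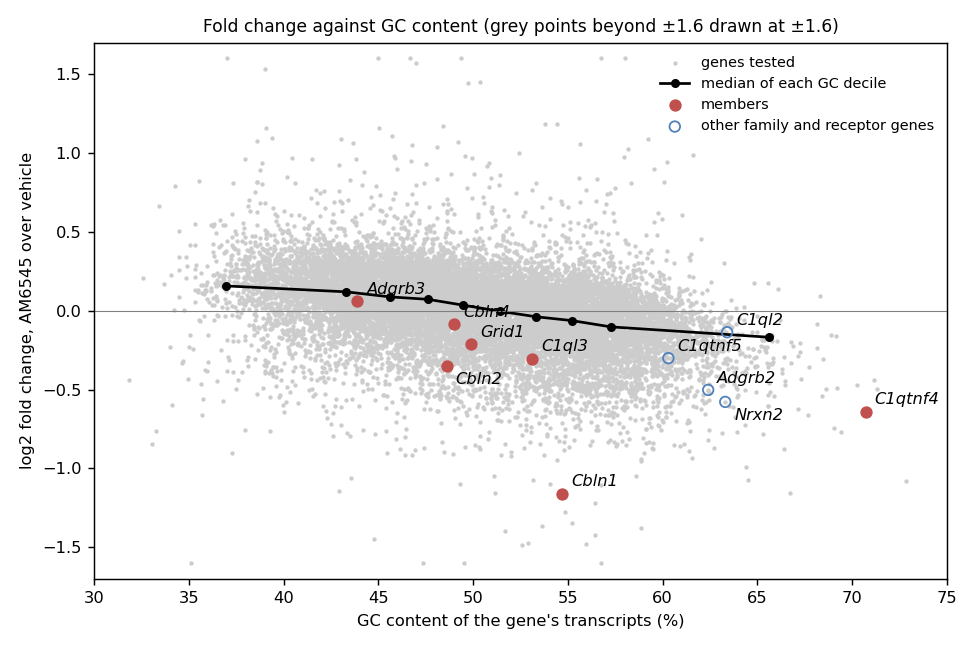
Log2 fold change (AM6545 over vehicle) against the GC content of each gene's transcripts in percent. Grey points are genes tested, the black line joins the medians of the 10 GC deciles, red points are the 7 members and blue rings 4 other genes of the family or its receptors. C1qtnf4 lies at the right edge at 70.7% GC and -0.64, while C1ql3 and Cbln1 lie below the median line at 53.1% and 54.7% GC.

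The genes whose pattern over the 7 libraries was most like that of C1qtnf4 were Romo1, Tmem205, Cyba, Uqcr11 and Atox1. Their log2 levels, each centred on its own mean, differed from those of C1qtnf4 by a root mean square of 0.08 to 0.10. Romo1, a small mitochondrial inner membrane protein, was at 29.5 to 38.4 CPM in AM6545 and 43.7 to 61.0 CPM in vehicle. Uqcr11, a subunit of respiratory complex III, was at 109.5 to 131 CPM and 153 to 218 CPM. All 5 were highest in vehicle replicate B, as C1qtnf4 was, and had a GC content of 57.4% to 60.2%.

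C1ql3 (ENSMUSG00000049630.7, chr2:13003457-13011806, minus strand) encodes the C1q-like ligand of the Adgrb3 receptor. It was at 20.6, 22.1, 21.5 and 20.5 CPM in AM6545 replicates B, D, E and F and at 27.0, 24.1 and 27.3 CPM in vehicle replicates B, D and E. Every AM6545 library lay below every vehicle library, and the AM6545 libraries were within 2 CPM of each other. The means were 21.2 ± 0.811 CPM (SD, n = 4) and 26.2 ± 1.78 CPM (SD, n = 3). The difference of -0.30 on the log2 scale (SE 0.10), or 19.0% lower, did not pass (edgeR, unadjusted p 0.00935, adjusted p 0.243). Over 19 alternatives the log2 fold change stayed between -0.36 and -0.21, with adjusted p-values of 0.138 to 1. The GC and length correction left -0.32. On the per-length scale the groups did not overlap either, at 15.7 to 17.2 TPM and 17.7 to 19.8 TPM. Markers of the dentate gyrus, where C1ql3 is made, summed to 121 to 148 CPM in AM6545 and 114 to 139.9 CPM in vehicle, with overlap.

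Cbln1 (ENSMUSG00000031654.17, chr8:87468405-87472609, minus strand) encodes the founding cerebellin, which joins cerebellar parallel fibres to Purkinje cells. It had few counts here, 18, 33, 44 and 34 in AM6545 replicates B, D, E and F and 122.1, 62.6 and 27 in vehicle replicates B, D and E. In CPM these are 0.779, 1.26, 2.07 and 1.30 against 4.91, 2.54 and 1.46. Vehicle replicate B alone was well above the rest, and vehicle replicate E lay within the AM6545 range. The log2 fold change of -1.16 (SE 0.40) was the largest of the 7 members and did not pass (edgeR, unadjusted p 0.0136, adjusted p 0.255). Without vehicle replicate B it was -0.59 (adjusted p 0.825), and without vehicle replicate E -1.47 (adjusted p 0.0301), where 25.7% of all genes had an unadjusted p under 0.05. The thalamic marker Gbx2, which did not pass the low-count filter, was likewise highest in vehicle replicate B. It had 0.604 CPM there and 0 to 0.191 CPM elsewhere. Tcf7l2 (13.04 CPM), Lef1 (4.55 CPM) and Tac2 (4.87 CPM) of the same list were also highest in vehicle replicate B. Prkcd, the most abundant of its 6 genes, was lowest there at 26.2 CPM and highest in AM6545 replicate B at 51.5 CPM. Slc17a6 was highest in AM6545 replicate E at 18.4 CPM, beside 16.9 CPM in vehicle replicate B. The whole thalamus and habenula list summed to 66.1 CPM in vehicle replicate B, the highest vehicle sum, beside 54.6 to 74.5 CPM in the AM6545 libraries. Its part in the Cbln1 values was not tested.

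Cbln2 (ENSMUSG00000024647.15, chr18:86711110-86718283, plus strand) encodes a cerebellin of forebrain projection neurons. It was at 7.53, 10.5, 12.04 and 8.25 CPM in AM6545 and at 12.8, 13.99 and 9.74 CPM in vehicle, in the same order of replicates. The groups overlapped, with AM6545 replicates D and E above vehicle replicate E. Its log2 fold change was -0.35 (SE 0.18; edgeR, unadjusted p 0.0720, adjusted p 0.387), and it was below 0 under all 19 alternatives, from -0.48 to -0.24.

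Cbln4 (ENSMUSG00000067578.4, chr2:172036233-172043466, minus strand), a cerebellin found in somatostatin interneurons, was at 11.03, 14.04, 20.2 and 12.6 CPM in AM6545 and 19.3, 13.6 and 12.99 CPM in vehicle. The highest library was AM6545 replicate E and the next was vehicle replicate B, and the groups overlapped. The log2 fold change was -0.08 (SE 0.21; edgeR, adjusted p 0.867), and 0.13 without vehicle replicate B. Sst, which encodes somatostatin, was at 202 to 223 CPM in AM6545 and 247 to 356 CPM in vehicle without overlap, at a log2 fold change of -0.41 (edgeR, adjusted p 0.231). Of the 8 interneuron markers 5 were below 0 and 3 above, with Gad1 at 0.29, Gad2 at 0.12 and Lhx6 at 0.11.

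Of the receptors, Grid1 (ENSMUSG00000041078.8, chr14:34820108-35583379, plus strand) encodes the delta-type receptor GluD1 on which cerebellins dock in the forebrain. It was at 6.36, 6.56, 7.24 and 8.94 CPM in AM6545 and 11.3, 8.35 and 5.52 CPM in vehicle. The vehicle libraries spanned the whole AM6545 range, from the lowest value of all in replicate E to the highest in replicate B. The log2 fold change was -0.21 (SE 0.21; edgeR, adjusted p 0.653), and 0.06 without vehicle replicate B.

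Adgrb3 (ENSMUSG00000033569.18, chr1:25067476-25829707, minus strand) encodes the adhesion receptor BAI3 that C1ql proteins bind. It was at 86.0, 88.5, 97.2 and 86.2 CPM in AM6545 and 84.1, 87.9 and 85.3 CPM in vehicle. Apart from AM6545 replicate E, all libraries lay within 5 CPM of each other. The log2 fold change was 0.06 (SE 0.09; edgeR, adjusted p 0.769). At 43.9% GC it sat in the second lowest decile, where the median of all genes was 0.12, and the GC and length correction turned its fold change to -0.14 (adjusted p 0.757).

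**Figure D4:**
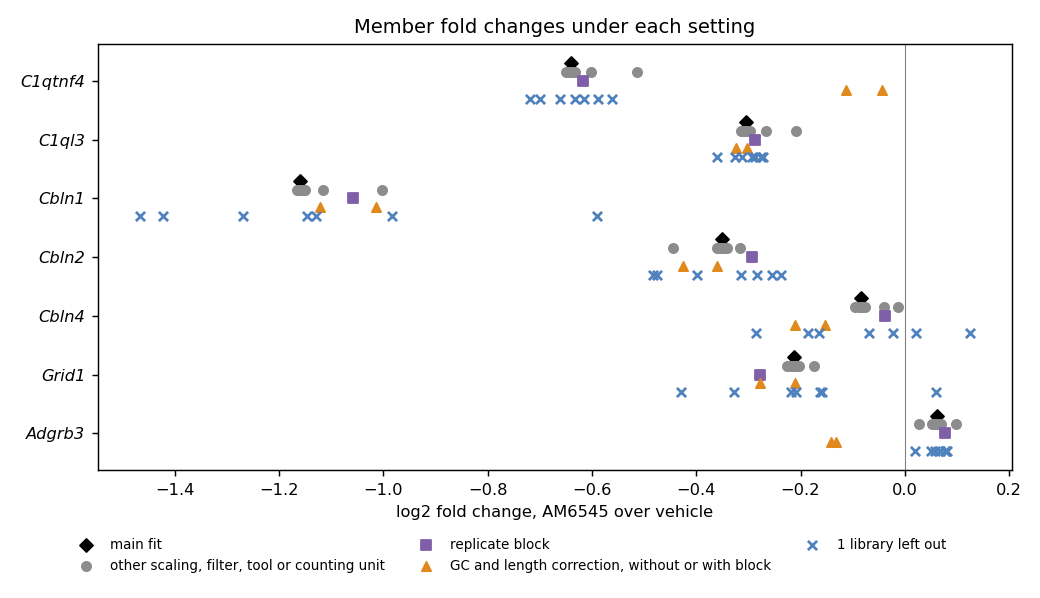
Log2 fold change (AM6545 over vehicle) of each member under every setting tried, with 1 marker per setting. Black diamonds are the values reported here, orange triangles the GC and length correction and blue crosses the fits that leave out 1 library. The triangles move C1qtnf4 to -0.11 and -0.04 and leave C1ql3 near -0.3, and the crosses spread Cbln1 from -1.47 to -0.59.

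At the level of transcripts, C1qtnf4, C1ql3, Cbln4 and Grid1 each had all their counts on 1 transcript. Of 15 transcripts of the members other than C1qtnf4 that passed the filter, 0 had an adjusted p under 0.05 with edgeR, as did 0.0177% of the 33962 transcripts tested. At an unadjusted p under 0.05 there were 2, where 8.39% of all transcripts passed. These were C1ql3-201 and, named only after its values were seen, Adgrb3-201. DESeq2 called 1, Adgrb3-201. In simulated transcript counts, edgeR recovered 4% of changes of log2 1 and 23% of log2 2. Most changes of this size could thus be missed.

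Adgrb3-203, a coding transcript of 2953 bases, carried 78.4% of the counts of Adgrb3. Its share was 76.4% ± 1.07 in AM6545 (SD, n = 4) and 81.3% ± 3.41 in vehicle (SD, n = 3), without overlap. How often shares do not overlap over all transcripts was not computed, so the separation has no background to be read against. The level of Adgrb3-203 had a log2 fold change of -0.02 (SE 0.08, edgeR adjusted p 0.958). The longer Adgrb3-201 (5059 bases) had 239, 190, 68.1 and 0 counts in AM6545 replicates B, D, E and F and 0 in all 3 vehicle libraries. It thus had counts in 3 of 4 AM6545 libraries, at 3.29% to 12% of the gene's counts, and was listed at 0 in the other. Adgrb3-207 (5448 bases), named after its values were seen, had 34.1, 35.6, 187 and 243 counts in the same AM6545 libraries. In vehicle replicates B, D and E it had 80.7, 206 and 209. Within AM6545, Adgrb3-207 was low where Adgrb3-201 was high, and how reads were divided between them was not tested. The 3 transcripts of Cbln1 each held between 22.8% and 38.8% of the gene's counts. Cbln1-201 took 10.6% of them in vehicle replicate D and 100% in AM6545 replicates B and D. The 2 leading transcripts of Cbln2, Cbln2-204 and Cbln2-201, took 45.9% and 32.1%. Each of these 2 went from 0% in at least 1 library to most of the gene's counts in another, so at 174 to 347 counts per library the division of reads among Cbln2 transcripts varied widely within groups.

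The other genes of the pathway were taken from fixed lists and tested in the same fit, with none past an adjusted p of 0.05. DESeq2 called 1 of these other genes, Adgrb2, and limma-voom 2, Adgrb2 and Nrxn2. Of the 8 C1ql and cerebellin ligands, 7 were tested and all 7 had a log2 fold change below 0, as did 48.6% of all genes. Their median was -0.31, members included, beside 0.01 over all genes. Only 3 of the 7 were not members: C1ql1, C1ql2 and Cbln3. Cbln3, at 0.09 to 0.69 CPM, had an SE of 0.51. C1ql2 had 63.4% GC, and of the 674 genes at 60% to 65% GC, 88.1% were lower. C1ql2 turned to 0.09 after the GC and length correction and to 0.01 with limma-voom. C1ql1, a ligand of climbing fibres that was named after its value was seen, was the only tested ligand outside the members with an unadjusted p under 0.05 (-0.34, SE 0.15; edgeR, adjusted p 0.320). Among all genes tested, 8.7% were lower at that limit. C1ql1 ran from 14.3 to 17.8 CPM in AM6545 and from 16.9 to 25.6 CPM in vehicle, with overlap and the highest value in vehicle replicate B. Its GC content was 65.8%, and the 62 genes with at least 65% GC had a median of -0.33. C1ql2, a mossy fibre ligand like C1ql3, was at 168 to 205 CPM in AM6545 and 181 to 229 CPM in vehicle, with overlap, and at -0.14 (SE 0.11; edgeR, adjusted p 0.566). C1ql4 was not tested, being listed at 0 in 6 of 7 libraries.

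Of the C1q/TNF-related proteins other than C1qtnf4, 6 of 10 were tested, 4 of them below 0, with a median of -0.17. With C1qtnf4 the median of the list was -0.29, and 0.03 after the GC and length correction with the replicate block. C1qtnf5 had an unadjusted p under 0.05, at -0.30 (SE 0.13; edgeR, adjusted p 0.320), and was at -0.0178 after the GC and length correction and 0.088 with the block as well. It was at 14.5 to 20.5 CPM in AM6545 and 20.6 to 24.1 CPM in vehicle, a gap smaller than the spread within either group. Its level is uncertain because it shares 1589 exonic bases with Mfrp on the same strand.

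Among 12 tested receptors and partners, 6 were below 0 and 6 above, with a median of 0.00. The 3 with an unadjusted p under 0.05 were all lower in AM6545, beside 8.7% of all genes in that direction, and none of the 3 passed. Adgrb2, a brain relative of Adgrb3, was at 159.5 to 189 CPM in AM6545 and 207 to 313 CPM in vehicle (-0.50, SE 0.13; edgeR, adjusted p 0.199). Nrxn2, a neurexin that binds cerebellins, was at 34.9 to 36.8 CPM and 39.4 to 73.6 CPM (-0.58, SE 0.17; edgeR, adjusted p 0.227), and its level is uncertain because 682 exonic bases overlap Slc22a12 on the opposite strand. Adgrb1, named after its value was seen, was at 45.6 to 50.3 CPM and 52.6 to 89.7 CPM (-0.48, SE 0.16; edgeR, adjusted p 0.245). For all 3, vehicle replicate B was far the highest library, and the GC content was 62.4% to 63.3%. The groups did not overlap for any of the 3. In that direction the same held for 7.19% of all genes and 18.99% of the decile of highest GC content, which holds all 3. Without vehicle replicate B, Adgrb2 was at -0.30 (adjusted p 0.646) and Nrxn2 at -0.27 (adjusted p 0.722), and without vehicle replicate E they were at -0.62 (adjusted p 0.0243) and -0.75 (adjusted p 0.0239). After the GC and length correction Adgrb2 was at -0.31 and Nrxn2 at -0.42. Nrxn3, another neurexin, was at 133 to 158 CPM in AM6545 and 137 to 179 CPM in vehicle, with overlap (-0.11, SE 0.11; edgeR, adjusted p 0.674).

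**Figure D5:**
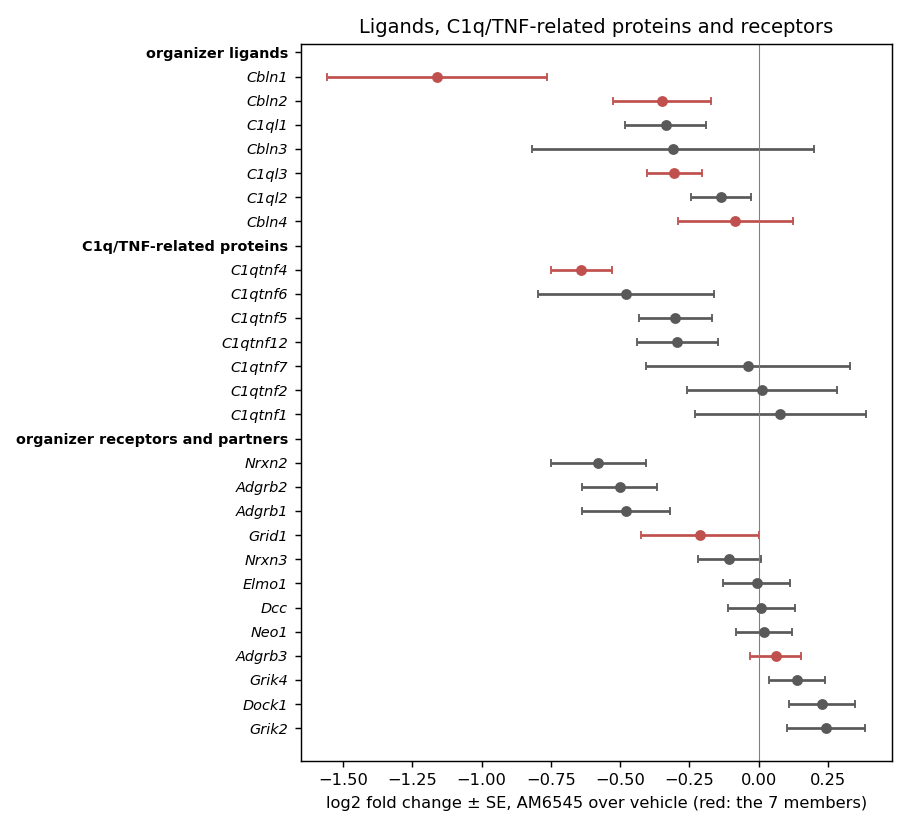
Log2 fold change ± SE (AM6545 over vehicle) of the tested genes of 3 fixed lists, red for the 7 members. All tested C1ql and cerebellin ligands lie below 0, as do 48.6% of all genes tested. C1ql2 lies at 0.09 after the GC and length correction (not drawn). Among the receptors Nrxn2, Adgrb2 and Adgrb1 lie lowest.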

How the data were processed

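The authors deposited estimated counts, not scaled to a common total, for 22248 genes and 102392 transcripts in 7 libraries. Salmon 1.5.2 and mm10 are named per the submitters' processing notes; the annotation release and strand setting are not given in the sources used here. The kit was SMARTer Ultra Low Input, per the labels' protocols. Ignoring versions, 22148 gene identifiers were found in GENCODE release M21 (GRCm38), which gave names, coordinates, lengths and GC content. Of these, 22135 carried a higher version, so lengths and positions may differ from those used for counting.

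Counts were rounded and compared with edgeR 4.0.16 (R 4.3.3, limma 3.58.1): quasi-likelihood test, TMM, filterByExpr, robust fit, no covariates, Benjamini-Hochberg adjustment over all genes. SE is the absolute log2 fold change over the square root of F. The code was tested on simulated counts. Changes of log2 1 and 2 were recovered for 90% and 98% of changed genes, and for 4% and 23% of changed transcripts. Of the calls, 5.53% were false for genes and 10% for transcripts. The members and lists were chosen with earlier results of these data known, and some genes of the receptor list are not reported here. Named were the members, per list the genes past an adjusted p of 0.05, filled to 2 by smallest p, plus C1ql2, the 5 genes (model names left out) nearest to C1qtnf4 with a mean of at least 5 CPM, and transcripts holding at least 20% of a member's counts. Alternatives were other scalings, filters and tools (DESeq2 1.42.0, limma-voom), a replicate block, a lowess correction (span 0.3) for GC content and length, and leaving out each library.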

Additional observations from a re-analysis of the deposited data

Results flagged for a closer look

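Dixon's ratio was computed within the AM6545 group for 34 values, of which 2 had a single distant library. About 1 in 20 such groups exceeds the limit by chance, or 1.7 of 34. The first was Sparc, a secreted matrix protein from the list of other synapse organizers: it was at 779 CPM in AM6545 replicate D, while AM6545 replicates B, E and F had 602 to 632 CPM. The second was the share of Cbln1-202 in the counts of Cbln1, which was 44.4% in AM6545 replicate F and 0% in replicates B, D and E, on a gene total of 18 to 44 counts per library.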

How the results depend on the processing

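The count of all genes past the threshold was 1, and 2 with a mean of at least 50 counts or without robust estimation, 205 with DESeq2, 394 with limma-voom, 0 after the GC and length correction, and from 0 to 944 when 1 library was left out, with 944 without vehicle replicate E. Of the 6 members tested, 0 passed under any alternative except that fit, which gave 1 (Cbln1), a range of 0 to 1. Of the other pathway genes, DESeq2 called 1 and limma-voom 2, and leaving out a library gave 0 to 3. Member transcripts past the threshold numbered 1 with DESeq2 and 0 when any library was left out. C1ql3, Cbln1 and Cbln2 were below 0 under every alternative run (Cbln1 did not pass the filter of 50 counts). Leaving out 1 library gave -0.28 to 0.13 for Cbln4 and -0.43 to 0.0606 for Grid1. The GC and length correction gave -0.14 for Adgrb3 and 0.0893 for C1ql2, and with the replicate block -0.13 for Adgrb3, 0.13 for C1ql2 and 0.088 for C1qtnf5, while limma-voom gave 0.0083 for C1ql2; the cause was not tested. The difference between groups in total counts ran from -1022285 to 2337743, and that in the GC slope from -0.163 to -0.121, with exact permutation p-values of 0.0667 or 0.1, the smallest that 6 libraries allow.

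Replicate letters B, D and E occur in both groups, but same-letter libraries did not deviate together (r of deviations -0.311, -0.145 and -0.239), and none correlated best with its own letter, so the letters were not taken as pairing. With the replicate block, 1 gene passed the threshold and 1199 had an unadjusted p under 0.05 (2134 without it), and 0 of the 6 members had one, against 2. That number of genes was also 3508 with limma-voom, 988 after the GC and length correction (426 with the block), and 954 to 3810 when 1 library was left out, the extremes being without vehicle replicates B and E.

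Depth limits Cbln1 most, at 18 to 122.1 counts per library.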

Other observations

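The list of other secreted synapse organizers holds the neuronal pentraxins, the Lgi proteins with their Adam receptors, thrombospondins and glypicans, among others. All 22 genes were tested, and 0 had an adjusted p under 0.05 by edgeR, DESeq2 or limma-voom, or an unadjusted edgeR p under 0.05. Their median log2 fold change was -0.07, with 14 below 0 and 8 above. Of the 2 with the smallest p, Lgi2, a secreted ligand of Adam receptors, was at 19.1 to 27.7 CPM in AM6545 and 21.8 to 34.6 CPM in vehicle (-0.30, SE 0.16; edgeR, adjusted p 0.408). Sparc was at 602 to 779 CPM and 684 to 1002 CPM (-0.27, SE 0.15; edgeR, adjusted p 0.412). Both had their highest value in vehicle replicate B, and without it Lgi2 was at -0.12 and Sparc at -0.06. Sparc was at -0.04 with limma-voom. Larger values with wider errors were found for Thbs2, at 0.41 (SE 0.24), and Thbs4, at -0.39 (SE 0.34), both named after their values were seen (edgeR, adjusted p 0.439 and 0.602).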
